A study of Mus musculus with 11 samples.

Results

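The genes described here are 33 mouse genes of glycolysis and of the response to low oxygen, taken as a named list: 16 enzymes of the glycolytic path, 2 transporters, 3 regulators of its flux, 3 genes of oxygen sensing and 9 genes known to be induced by hypoxia. They were measured on one-colour Agilent arrays in epithelial cells of mouse mammary outgrowths, grown from primary mammary cells that had been transduced with a lentivirus and injected in Matrigel. Every outgrowth carried a hairpin, either against Ror2, a receptor of non-canonical Wnt signalling (shROR2), or against luciferase as the control (shLUC). Basal and luminal cells were then separated by their surface CD24 and CD29, which gave 4 groups: basal shROR2 (3 arrays), basal shLUC (3 arrays), luminal shROR2 (2 arrays) and luminal shLUC (3 arrays). The study asked what Ror2 does in each compartment. The strain and age of the mice and the outgrowth behind each array are not given in the sources used here. The labels speak of biological triplicates.

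Glycolysis turns glucose into pyruvate in the cytosol, and lactate dehydrogenase and the monocarboxylate exporter carry the excess away as lactate. When oxygen is low, the prolyl hydroxylases of the Egln family no longer mark the protein of Hif1a for destruction, and with its partner Arnt it binds the short sequence ACGTG or GCGTG near genes of glucose uptake, glycolysis, blood vessel growth and collagen modification. In the mammary gland, luminal cells draw on glucose to make lactose for milk, while the basal layer is contractile and rests on the basement membrane.

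All 33 genes had a probe, and 32 of them passed the filter on dim probes, which asked that 3 or more of the 11 arrays show a signal well above background. On all 11 arrays 29 were well above background. Of the other 4, Pdk1 was so on 8 arrays, Ankrd37 on 5, P4ha1 on 3 (all basal) and Egln1 on 1. Levels are given as scaled signals, the processed signal of a probe divided by the 75th percentile of its array. Because probes differ in brightness, a scaled signal compares arrays for one gene and not genes with each other. Changes are differences of log2 scaled signals from a limma fit of 4 group means to 29429 features, with p-values adjusted by Benjamini and Hochberg's method over all of them and called under 0.05.

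Between 52.8% and 59.5% of probes per array lay well above background, no spot was saturated, and arrays of one group correlated at 0.941 to 0.983 over all features, lowest in basal shROR2. The probe for Ror2 was well above background on 1 array, a basal shROR2 one, with scaled signals of 0.145, 0.026 and 0.0606 in basal shROR2, 0.0947, 0.0912 and 0.0861 in basal shLUC, 0.0288 and 0.0725 in luminal shROR2 and 0.0275, 0.0293 and 0.0294 in luminal shLUC, so these arrays do not check the hairpin. The 8 basal markers summed to 1420 to 1470 in basal shROR2, 1490 to 1660 in basal shLUC, 113 to 119 in luminal shROR2 and 107 to 115 in luminal shLUC. The 8 luminal markers summed to 78.2 to 94.1, 62.2 to 63.9, 441 to 473 and 410 to 431 in the same 4 groups, so basal markers were high on the basal arrays and luminal markers on the luminal arrays. In RNA from many cells, fewer cells of a type and less RNA per cell cannot be told apart.

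The promoters are shown because many of these genes are known targets of Hif1a, whose binding letters are known. RefSeq's table for build GRCm38.p6 gave windows of 300 bases, 250 before and 50 after a start site, for 32 of the 33 genes. The letters ACGTG, read on both strands, stood in a window of 23 of these 32 genes (71.9%), against 21.8% of 27025 genes of the table. The letters GCGTG stood in 22 of 32 (68.8%), against 35.2% of all genes, and at least 1 of these motifs in 30 of 32 (93.8%), against 46.7%. A gene can have several windows. Counted by window, ACGTG stood in 56.5% of 46 member windows, against 19.6% of all 32851, and GCGTG in 58.7%, against 32.4%. The windows of the members were also richer in G and C, with a median of 62.2% against 52.7% for all windows, and held a median of 20 CpG against 7, and the part of base composition in the motif counts was not tested. The stretches that follow lie within the 250 bases before the start site for 8 members, chosen to show 1 copy, 2 copies and the palindrome. Each reads 5′ to 3′ on the strand of its gene. Capitals mark ACGTG on either strand, and the palindrome is the form that holds it on both. The stretch of Hk2 shows 1 copy, and another lies farther upstream, outside the printed bases.
Slc2a1 (chr4:119108684-119108738, plus strand): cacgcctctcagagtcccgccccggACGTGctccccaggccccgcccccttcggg
Slc16a3 (chr11:120949015-120949066, plus strand): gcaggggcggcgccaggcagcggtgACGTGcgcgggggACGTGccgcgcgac
Hk2 (chr6:82774477-82774626, minus strand): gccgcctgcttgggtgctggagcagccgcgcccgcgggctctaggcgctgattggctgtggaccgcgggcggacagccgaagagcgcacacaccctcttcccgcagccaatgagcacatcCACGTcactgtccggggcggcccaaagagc
Pgam1 (chr19:41911732-41911786, plus strand): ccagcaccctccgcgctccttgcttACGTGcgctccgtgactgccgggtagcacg
Pgk1 (chrX:106186925-106186998, plus strand): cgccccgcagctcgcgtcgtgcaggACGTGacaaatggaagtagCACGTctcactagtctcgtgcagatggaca
Hif1a (chr12:73907707-73907826, plus strand): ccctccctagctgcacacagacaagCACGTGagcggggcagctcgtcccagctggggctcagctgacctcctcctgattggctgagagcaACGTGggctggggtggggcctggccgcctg
Pfkfb3 (chr2:11502113-11502168, minus strand): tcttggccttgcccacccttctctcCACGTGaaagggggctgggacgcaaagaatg
Bnip3 (chr7:138909584-138909639, minus strand): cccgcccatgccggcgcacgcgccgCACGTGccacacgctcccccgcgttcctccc

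A match of 5 letters is a description of these windows and not a binding site. The motif was found among called and uncalled members: ACGTG stood in a window of 11 of the 15 members with a window that were called higher in basal than in luminal shLUC cells, in 2 of the 2 called lower and in 9 of the 14 not called. Pgk1 and Bnip3, printed above with 2 copies and with the palindrome, were among those not called.

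In control outgrowths more of these genes were called higher than lower in basal against luminal cells. Of the 32 tested, 16 were called higher in basal shLUC (one of them, P4ha1, passed the filter only through basal arrays), 2 were called lower (Aldoc and Pfkfb3) and 14 were not called, while over all features 27% were called, 13.7% higher and 13.3% lower. The median change of the 32 was 0.45 on the log2 scale, against -0.062 for all features. Among the 31 measured in both groups the largest changes were those of Vegfa, Slc16a3, Hif1a and Pfkp upward and of Aldoc downward. Counting the 29 genes well above background on every array, 15 were called higher and 2 lower. A fit of only the features well above background on all 11 arrays also called 15 of these 29 higher and 2 lower. Of its 20815 features it called 6827, 3243 higher and 3584 lower. Within the slides, which each held arrays of all groups, the median of the 32 was 0.53 on slide 1 and 0.30 on slide 2. Values within slides were added after the data were seen. Luminal shLUC on slide 1, basal shROR2 and basal shLUC on slide 2, and luminal shROR2 on each slide had a single array. With slide blocked, 17 of the 32 were called, against 7431 of 29429 features.

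**Figure D1:**
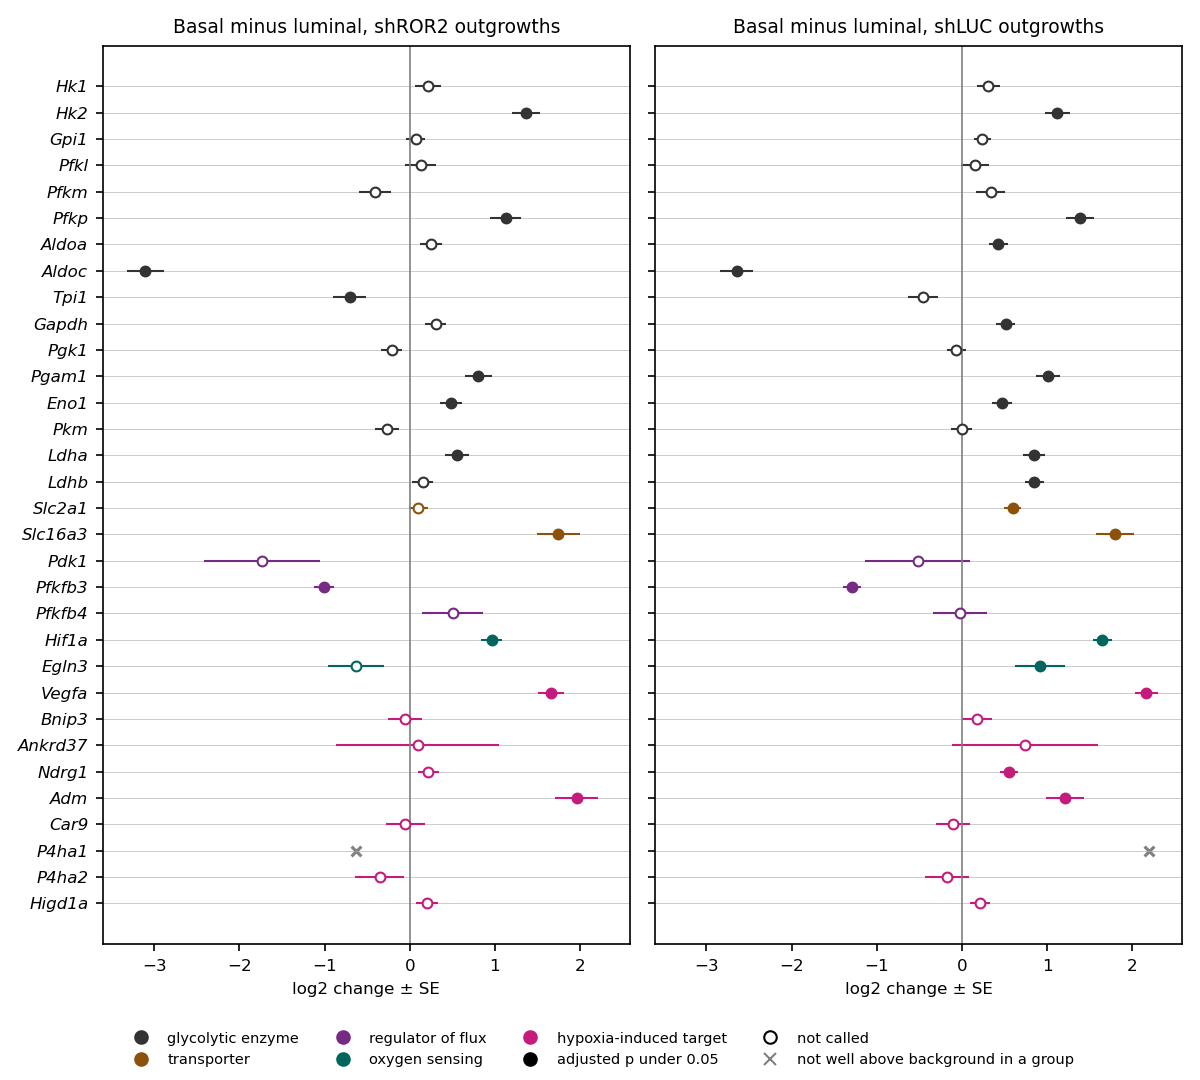
Changes of the 32 tested genes between basal and luminal cells, within shROR2 outgrowths and within shLUC outgrowths, on the log2 scale with SE (n = 3 basal arrays against 2 luminal shROR2 or 3 luminal shLUC arrays). Filled points are called at an adjusted p under 0.05 by limma, colours give the role of the gene, and crosses mark genes not well above background on any array of a group. Vegfa lies farthest right among the filled points of the shLUC panel at 2.17, and Aldoc farthest left in both panels.

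Among the first steps of the path, the 2 hexokinases, which trap glucose as its phosphate, were measured and only Hk2 was called. Hk2, the inducible form, had scaled signals of 2.43, 2.83 and 2.65 in basal shLUC, against 1.43, 1.18 and 1.06 in luminal shLUC cells. In shROR2 outgrowths Hk2 stood at 3.19, 2.93 and 3.49 in basal and at 1.36 and 1.13 in luminal cells. Basal and luminal arrays did not overlap with either hairpin, and Hk2 was 2.17-fold higher in basal shLUC (log2 1.12, SE 0.15, adjusted p = 0.000547, limma). Hk1, the widely expressed form, had 33.2, 30.7 and 36 in basal shLUC, against 26.4, 28.1 and 26.1 in luminal shLUC cells. Its change of 0.31 (SE 0.13, adjusted p = 0.128) was not called, although the arrays did not overlap, and a second, dimmer probe of Hk1 gave -0.040. Gpi1, the isomerase of the next step, was not called either, at 0.24 (SE 0.10, adjusted p = 0.115).

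Of the 3 subunits of phosphofructokinase, which commits sugar to glycolysis, only Pfkp was called. Pfkp, the platelet form, gave 3.88, 3.5 and 4.39 in basal shLUC, against 1.56, 1.57 and 1.35 in luminal shLUC cells. Its values in shROR2 outgrowths were 3.65, 4.06 and 2.76 in basal and 1.64 and 1.51 in luminal cells. Every basal array of Pfkp was above every luminal one, and the change was 1.39 (SE 0.16, adjusted p = 0.000271, limma). The liver form Pfkl (0.16, SE 0.16, adjusted p = 0.528) and the muscle form Pfkm (0.34, SE 0.17, adjusted p = 0.181) were not called. Their scaled signals spanned 4.84 to 6.52 for Pfkl and 0.493 to 0.701 for Pfkm in basal shLUC, against 4.47 to 5.54 and 0.414 to 0.534 in luminal shLUC cells, so both overlapped.

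Aldolase, which splits the sugar, showed its isoforms moving in opposite directions. Aldoc, the form best known from brain, gave 3.27, 3.52 and 3 in basal shLUC, against 18.9, 21.6 and 20.6 in luminal shLUC cells. In shROR2 outgrowths Aldoc was at 3.02, 2.36 and 4.24 in basal and at 26.9 and 26.7 in luminal cells. The lowest luminal array lay far above the highest basal one, and Aldoc was 6.24-fold lower in basal shLUC (log2 -2.64, SE 0.19, adjusted p = 1.46e-05, limma). Aldoa, the muscle and general form, had 168, 152 and 176 in basal shLUC, against 118, 130 and 120 in luminal shLUC cells. It was higher by 0.43 (SE 0.11, adjusted p = 0.0225), a call lost without luminal shLUC replicate 1 or 3 or basal shLUC replicate 1 or 3, with adjusted p from 0.0699 to 0.0824.

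Of the later enzymes, Pgam1, the phosphoglycerate mutase, gave 33.1, 32.7 and 37.4 in basal shLUC, against 18.4, 16.4 and 16.2 in luminal shLUC cells. In shROR2 outgrowths its levels were 32.5, 44.4 and 33.5 in basal and 21.6 and 20.1 in luminal cells. All basal arrays were above all luminal ones, and Pgam1 was 2.02-fold higher in basal shLUC (adjusted p = 0.000826, limma). Gapdh, which reduces the cofactor NAD, was called at 0.51 (SE 0.11, adjusted p = 0.00771), and its 7 probes gave changes of 0.39 to 0.55. Some of these probes were not called, at adjusted p = 0.0513, 0.113 and 0.0806 over all probes (limma). Eno1, the enolase, was called at 0.47 (SE 0.11, adjusted p = 0.014), a call lost without luminal shLUC replicate 1 (adjusted p = 0.0583) or basal shLUC replicate 3 (adjusted p = 0.0566).

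Tpi1, Pgk1 and Pkm stood apart from their neighbours in the path. Tpi1, the triose phosphate isomerase, had 9.63, 8.54 and 9.01 in basal shLUC, against 12.5, 13.7 and 11.1 in luminal shLUC cells. These arrays did not overlap, but the change of -0.45 (SE 0.17, adjusted p = 0.088, limma) was not called, while a second probe passed at -0.53 (adjusted p = 0.00481 over all probes). Pgk1, the first enzyme of the path to make ATP, changed by -0.064 (SE 0.11, 95% interval -0.31 to 0.19), and Pkm, the pyruvate kinase, had equal group means of 4.52 on the log2 scale (SE of the change 0.12).

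Both lactate dehydrogenases were higher in basal shLUC cells. Ldha, whose subunit favours lactate formation, gave 94.8, 89.5 and 97.7 in basal shLUC, against 44.5, 53.7 and 59.7 in luminal shLUC cells. Its levels in shROR2 outgrowths were 90.7, 95.2 and 85.7 in basal and 58.7 and 64.7 in luminal cells. Neither hairpin gave overlapping arrays, and Ldha was 1.80-fold higher in basal shLUC (log2 0.85, SE 0.13, adjusted p = 0.00128, limma). Ldhb, the heart-type subunit, gave 7.84, 7.36 and 7.61 in basal shLUC, against 3.89, 4.59 and 4.19 in luminal shLUC cells, a similar change of 0.85 (SE 0.11, adjusted p = 0.000505).

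The 2 transporters were both called higher in basal shLUC. Slc2a1, the glucose transporter GLUT1, had 49.2, 45.6 and 48 in basal shLUC, against 31.2, 29.8 and 33.6 in luminal shLUC cells. Slc16a3, the lactate exporter MCT4, had 0.857, 0.988 and 1.28 in basal shLUC, against 0.238, 0.304 and 0.355 in luminal shLUC cells. No array overlapped for either gene, with changes of 0.60 for Slc2a1 (SE 0.098, adjusted p = 0.00198, limma) and 1.80 for Slc16a3 (SE 0.22, adjusted p = 0.000399). The change of Slc16a3 was smaller, though called, with normexp (0.96) and in the authors' table (0.89). In shROR2 outgrowths Slc16a3 kept the same order, at 1.45, 1.29 and 0.972 in basal and 0.326 and 0.407 in luminal cells.

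Of the regulators of flux, Pfkfb3 was one of the 2 members called lower. This enzyme makes fructose 2,6-bisphosphate, the activator of phosphofructokinase. Its levels were 5, 4.84 and 4.86 in basal shLUC, against 12, 12.7 and 11.4 in luminal shLUC cells, and 5.84, 6.37 and 5.68 in basal shROR2, against 12.9 and 11.2 in luminal shROR2 cells. Every luminal array was above every basal one, and Pfkfb3 was 2.45-fold lower in basal shLUC (log2 -1.29, SE 0.11, adjusted p = 2.66e-05, limma). Its relative Pfkfb4, at 0.542 to 0.701 in basal shLUC and 0.483 to 0.706 in luminal shLUC cells, changed by -0.022 (SE 0.32). Pdk1, the kinase that inhibits pyruvate dehydrogenase, was well above background on 2 basal shLUC arrays and gave -0.52 (SE 0.61).

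In oxygen sensing, Hif1a itself was among the genes with the largest contrast. Hif1a transcripts gave 15.8, 15.1 and 13.9 in basal shLUC, against 4.85, 4.6 and 4.82 in luminal shLUC cells. The shROR2 arrays gave 11, 9.38 and 11.4 in basal and 5.32 and 5.51 in luminal cells. With each hairpin all basal arrays were above all luminal ones, and Hif1a was 3.14-fold higher in basal shLUC (log2 1.65, SE 0.11, adjusted p = 8.14e-06, limma). Such transcript levels do not measure the Hif1a protein, which oxygen controls.

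Of the prolyl hydroxylases, Egln3, itself a hypoxia-induced gene, had 1.07, 1.13 and 1.08 in basal shLUC, against 0.521, 0.666 and 0.564 in luminal shLUC cells. Its shROR2 arrays gave 1.15, 0.683 and 0.44 in basal and 1.18 and 1.01 in luminal cells. The shLUC arrays were separate while the shROR2 ones overlapped. The change in shLUC cells of 0.92 (SE 0.30) stood at an adjusted p of 0.0485 (limma). That call was lost under 13 of 22 alternatives, among them leaving out any array of the 2 shLUC groups or basal shROR2 replicate 2 or either luminal shROR2 array, with adjusted p from 0.0563 to 0.139 in those cases. The change was 0.56 with normexp, 0.53 in the authors' table and 0.60 with the mean over probes, and a second probe gave 0.28 (adjusted p = 0.613 over all probes). Egln1, the main oxygen sensor, was not tested: its scaled signal was 0.222 on the array where it was well above background, basal shROR2 replicate 2, and 0.0321 to 0.141 on the others.

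**Figure D2:**
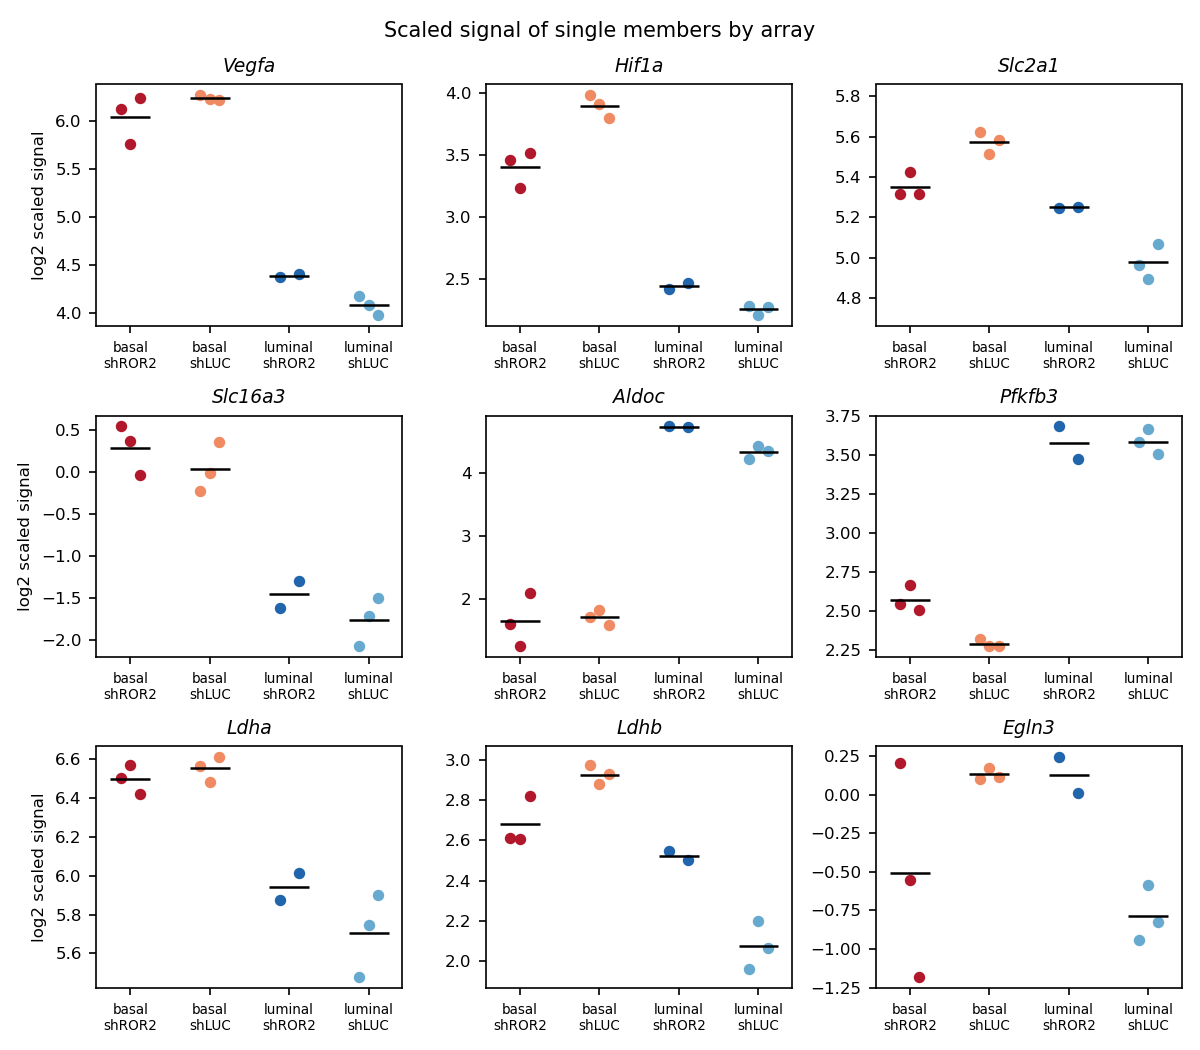
Scaled signals of 9 genes on each of the 11 arrays, on a log2 axis, with a bar at the mean of each group. Basal and luminal arrays are separate with either hairpin for genes such as Vegfa, Hif1a, Aldoc and Pfkfb3. Within a compartment the shROR2 and shLUC arrays are nearer to each other for these 4 genes, with Hif1a lower on the basal shROR2 arrays than on the basal shLUC ones.

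Among the hypoxia-induced genes, Vegfa, the vessel growth factor, showed the largest contrast. Its levels were 77.1, 75.4 and 74.6 in basal shLUC, against 18.1, 16.9 and 15.7 in luminal shLUC cells. In shROR2 outgrowths they were 70, 54.2 and 75.8 in basal and 20.8 and 21.1 in luminal cells. The lowest basal array was above every luminal one, and Vegfa was 4.49-fold higher in basal shLUC (log2 2.17, SE 0.14, adjusted p = 5.33e-06, limma), with 2.13 from its second probe. Adm, the vasodilator peptide adrenomedullin, gave 2.16, 2.79 and 2.71 in basal shLUC, against 1.25, 1.01 and 1.03 in luminal shLUC cells. In shROR2 outgrowths Adm was at 4.04, 2.91 and 4.83 in basal and 1.2 and 0.814 in luminal cells. Arrays of the compartments did not overlap with either hairpin, and the change was 1.21 (SE 0.22, adjusted p = 0.00386).

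Ndrg1, a stress-induced gene, was called at 0.55 (SE 0.11, adjusted p = 0.00524, limma). P4ha1, a catalytic subunit of the collagen prolyl hydroxylase, was not well above background on any luminal array and was so on 2 of the 3 basal shLUC arrays, at 0.152, 0.193 and 0.105, against 0.036, 0.0334 and 0.0268 in luminal shLUC cells. It was at least 1.28-fold higher in scaled signal in basal shLUC, a bound set by the lowest signal well above background on each luminal array. The log2 change was 0.27 with normexp and 0.29 in the authors' table, less than that bound. The bound thus holds for scaled signals only. Since P4ha1 passed the filter only through basal arrays, its call between compartments is no support. P4ha2, a related subunit, was not called, at -0.17 (SE 0.26). Neither were the mitophagy receptor Bnip3 (0.18, SE 0.18), the carbonic anhydrase Car9 (-0.11, SE 0.20), the mitochondrial protein Higd1a (0.21, SE 0.12) or Ankrd37 (0.74, SE 0.86), which was measured on 5 arrays.

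Stromal marker levels moved with the compartment as well. The 8 fibroblast markers summed to 47.2 to 62.1 in basal shROR2, 47.9 to 52.7 in basal shLUC, 10.7 to 10.8 in luminal shROR2 and 6.27 to 6.42 in luminal shLUC, where Lum, Pdgfra, Pdgfrb and Fap were not well above background on any array. The 8 endothelial markers summed to 40.5 to 53.7, 21.8 to 28.3, 16.3 to 16.8 and 12.5 to 13.3 in these groups. In basal against luminal shLUC, 7 of 8 fibroblast and 5 of 8 endothelial markers were called higher, and their part in the results for the glycolysis and hypoxia genes was not tested. Of 6 adipocyte markers the sums were 45.8 to 56.5, 24 to 26.4, 13.2 to 15.1 and 7.31 to 8.9. The 8 leukocyte markers on the array gave 514 to 522, 418 to 493, 493 to 518 and 481 to 506, and the 3 erythroid ones gave 2.36 to 6.05, 1.34 to 2.41, 6.38 to 9.4 and 3.9 to 4.63. Adipoq and Pdgfra were well above background only in basal shLUC, Tek was not in luminal shROR2, Lum and Pdgfrb were in neither luminal group and Fap was not in luminal shLUC.

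The same contrast in shROR2 outgrowths, which shares no array with the control one, had fewer calls. Both contrasts use the same spread estimate per feature, from all 11 arrays, so their calls are not independent of each other. Between basal and luminal shROR2 cells 9 members were called higher (Hk2, Pfkp, Pgam1, Eno1, Ldha, Slc16a3, Vegfa, Hif1a and Adm) and 3 lower (Aldoc, Tpi1 and Pfkfb3), against 22.8% of all features called, 10.6% higher and 12.3% lower. Of the 12, 11 were called in the same direction in shLUC cells, which is 91.7% of the shROR2 calls and 61.1% of the 18 shLUC calls. For all features the overlap was 74.6% and 63.2%. The median change of the 32 genes was 0.14, against -0.078 for all features. It was 0.12 on slide 1 and 0.39 on slide 2, each with a single luminal shROR2 array. Slide 2 also held a single basal shROR2 array. With slide blocked, 13 of the 32 were called, against 6507 of 29429 features. With only 2 luminal shROR2 arrays this contrast had the larger SE, and a fit of these groups alone called 7, against 2828 of 29429 features.

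Vegfa was 3.15-fold higher in basal shROR2 (log2 1.66, SE 0.15, adjusted p = 8.25e-05, limma), Hk2 2.58-fold (adjusted p = 0.000408) and Adm 3.89-fold (adjusted p = 0.000608). Hif1a was 1.95-fold higher (log2 0.96, SE 0.12, adjusted p = 0.000624), and Slc16a3 3.35-fold (adjusted p = 0.00114). Aldoc was 8.59-fold lower (log2 -3.10, SE 0.22, adjusted p = 1.62e-05) and Pfkfb3 2.01-fold lower (adjusted p = 0.000351). These 7 genes thus passed with both hairpins. The shROR2 call of Pfkfb3 was lost with the mean over its probes (log2 -0.72, adjusted p = 0.0502), and its second, dimmer probe gave -0.43 (adjusted p = 0.485 over all probes). The dimmer probes of Ldha were not called in shROR2 cells either, at 0.25 and 0.68 (adjusted p = 0.278 and 0.0751 over all probes, limma). The dimmer probe of Hk1 was called there, at 0.67 (adjusted p = 0.026 over all probes), while its brighter one was not. The calls of Eno1, Ldha, Pgam1 and Tpi1 were lost without one of the luminal shROR2 arrays: Eno1 at adjusted p = 0.123 without replicate 1 and 0.104 without replicate 2, Ldha at 0.154 and 0.0711, Tpi1 at 0.161 and 0.108, and Pgam1 at 0.0567 without replicate 2. Of the 7 genes called in shLUC cells only, Slc2a1 gave 0.10 (SE 0.11) and Ldhb 0.16 (SE 0.12) in shROR2 cells, while their arrays still did not overlap. Basal arrays were all above luminal ones in 15 of the 32 and all below in 5, against 19.7% and 26% of all features. None of these genes passed the test of the difference between hairpins that follows.

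In luminal cells none of these genes passed the test with the Ror2 hairpin. The limma fit called 0 of the 32 and, over all features, 1 (0.0034%), and 5 of the 32 had an unadjusted p under 0.05, against 1632 of 29429 features. The changes leaned upward: 25 of 32 were positive, with a median of 0.23 on the log2 scale against -0.001 for all features. The median was 0.28 on slide 1 and 0.19 on slide 2, and 0.16 without luminal shLUC replicate 1. Slide 1 held a single array of each luminal group, and slide 2 a single luminal shROR2 array. In 16 genes both shROR2 arrays were above all shLUC arrays and in 1, Eno1, below, against 14.4% and 14.6% of all features. The genes share their arrays, so these counts are not independent of one another, and no test was made over the list.

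The smallest p in luminal cells was that of Ldhb, at 5.85 and 5.66 in luminal shROR2, against 3.89, 4.59 and 4.19 in luminal shLUC cells. Its change was 0.45 (SE 0.12, adjusted p = 0.537, limma). Egln3 had 1.18 and 1.01 in luminal shROR2, against 0.521, 0.666 and 0.564 in luminal shLUC cells (0.91, SE 0.33, adjusted p = 0.768), and 0.54 from its second probe. Slc2a1 had 38 and 38.1 in luminal shROR2, against 31.2, 29.8 and 33.6 in luminal shLUC cells (0.27, SE 0.11, adjusted p = 0.829). For all 3 genes the shROR2 arrays were the higher ones with no overlap, and none was called. Over the 16 glycolytic enzymes, 14 changes were positive, and the 95% intervals ran from -0.52 (Eno1) at the lowest to 0.89 (Aldoc) at the highest. Dimmer probes disagreed in sign for Hk1 (-0.31, against 0.18 from the brighter one) and Pfkp (-0.43, against 0.078). With the mean over probes, 23 of the 32 members were positive. P4ha1 was not well above background on any luminal array.

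Marker levels moved with the same hairpin contrast. In luminal shROR2 against luminal shLUC, 7 of 8 fibroblast markers and 7 of 8 endothelial markers were higher, with median changes of 0.70 and 0.84 and none called. The sums given above did not overlap between these groups for fibroblast, endothelial, adipocyte and erythroid markers, nor for the luminal markers, of which 7 of 8 were higher in luminal shROR2. Lum, Pdgfra and Pdgfrb were not well above background on any luminal array. The part of these shifts in the values of the glycolysis and hypoxia genes was not tested.

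**Figure D3:**
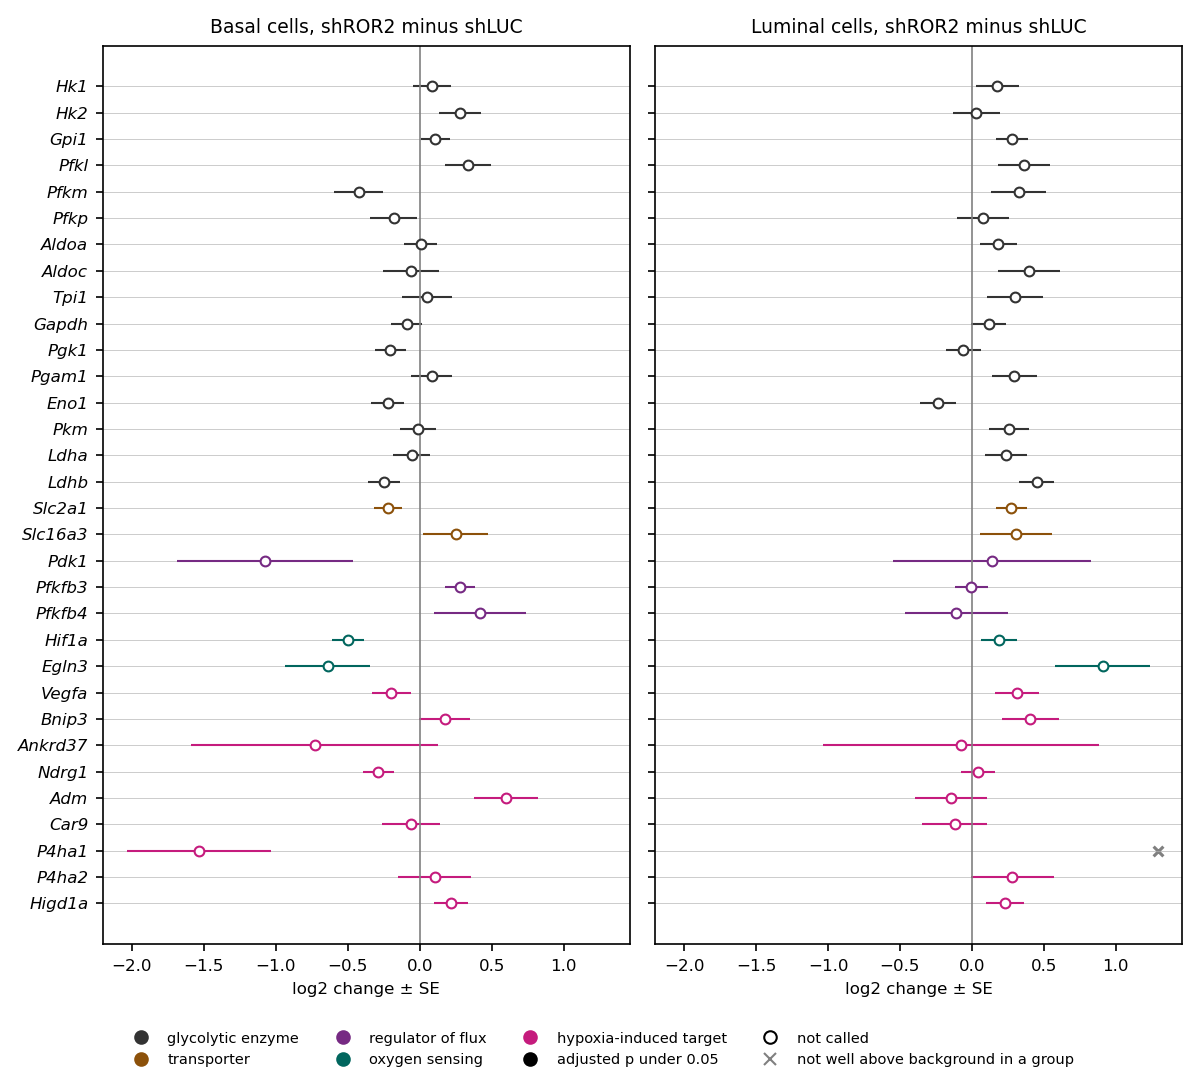
Changes of the 32 tested genes with the Ror2 hairpin, shROR2 minus shLUC, in basal cells (3 against 3 arrays) and luminal cells (2 against 3 arrays), on the log2 scale with SE. All points are open because none reached an adjusted p under 0.05 by limma, and the cross marks P4ha1, not well above background in luminal cells. Most luminal points lie right of 0, while basal points lie on both sides, with Hif1a at -0.50.

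In basal cells none of the 32 was called with the hairpin either, while 0.968% of all features were called, 0.384% higher and 0.584% lower. Of the 32, 6 had an unadjusted p under 0.05, against 4641 of 29429 features. The changes had no common direction, with 14 positive and 18 negative and a median of -0.058 against -0.045 for all features. The median was -0.10 on slide 1 and 0.054 on slide 2, which held a single array of each basal group. Arrays did not overlap for 4 genes that were higher in basal shROR2 (Hk2, Pfkfb3, Adm and Higd1a) and for 6 that were lower (Pgk1, Eno1, Ldhb, Slc2a1, Hif1a and Ndrg1), against 6.74% and 11.7% of all features. Replicates of basal shROR2 differed more from each other: the members had a median SD of 0.22 there, against 0.10 for basal shLUC cells, and all features one of 0.345, against 0.19.

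Hif1a had the smallest p, at 11, 9.38 and 11.4 in basal shROR2, against 15.8, 15.1 and 13.9 in basal shLUC cells. All shROR2 arrays were below all shLUC arrays, with a log2 change of -0.50 (SE 0.11, 95% interval -0.75 to -0.25, adjusted p = 0.0807, limma), which was not called. It passed under 3 alternatives, at adjusted p = 0.027 with normexp and quantile normalization, 0.0248 in the authors' value table and 0.0439 among probes well above background on all 11 arrays, with changes of -0.51, -0.50 and -0.50. Within the slides the change was -0.41 on slide 1 and -0.69 on slide 2, the latter from a single array of each basal group. Pfkfb3 gave 5.84, 6.37 and 5.68 in basal shROR2, against 5, 4.84 and 4.86 in basal shLUC cells, a separate set of arrays with a change of 0.28 (SE 0.11, adjusted p = 0.244).

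P4ha1 gave 0.0349, 0.127 and 0.0288 in basal shROR2, against 0.152, 0.193 and 0.105 in basal shLUC cells, with overlap at replicate 2, the only basal shROR2 array on which it was well above background. It was not called (adjusted p = 0.191, limma). Leaving out that array leaves no basal shROR2 signal well above background, so the call that then arises is no support. Without basal shROR2 replicate 1, Egln3 was called, at -0.998 (adjusted p = 0.0442), against -0.64 (SE 0.30, adjusted p = 0.338) with it. Ldhb had 6.12, 6.08 and 7.07 in basal shROR2, against 7.84, 7.36 and 7.61 in basal shLUC cells (-0.25, SE 0.11, adjusted p = 0.321), and Slc2a1 had 39.9, 43 and 39.8, against 49.2, 45.6 and 48 (-0.22, SE 0.098, adjusted p = 0.319). Adm changed by 0.60 (SE 0.22, adjusted p = 0.244) and Ndrg1 by -0.29 (SE 0.11, adjusted p = 0.244). For the 16 enzymes the 95% intervals lay between -0.81 (Pfkm) and 0.70 (Pfkl). Endothelial markers were higher in basal shROR2 for 8 of 8 genes, 2 of them called, and the adipocyte and leukocyte sums, both higher, did not overlap with those of basal shLUC. Luminal marker sums were higher too and basal marker sums lower, without overlap. By gene, 5 of the 8 luminal markers were higher and 3 lower, and 2 of the 8 basal markers were higher and 6 lower. The part of these shifts in the values of the members was not tested.

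The difference of the hairpin effects, basal minus luminal, was tested in the same fit and called 0 of the 32 and 0 of all features (0%), with 7 of the 32 and 2439 of all features at an unadjusted p under 0.05. It was negative for 26 of 32 genes, with a median of -0.22 against -0.043 for all features. That median was -0.37 on slide 1 and -0.012 on slide 2, where 16 of 32 were negative. The slide 1 value rests on a single array of each luminal group. The slide 2 value rests on a single array of every group but luminal shLUC. The smallest p belonged to Ldhb (-0.70, SE 0.17, adjusted p = 0.345, limma), Hif1a (-0.69, SE 0.17, adjusted p = 0.353) and P4ha1 (adjusted p = 0.395), the last with no luminal array well above background. The hairpin comparisons share no array, and the values that enter each difference are those given above.

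**Figure D4:**
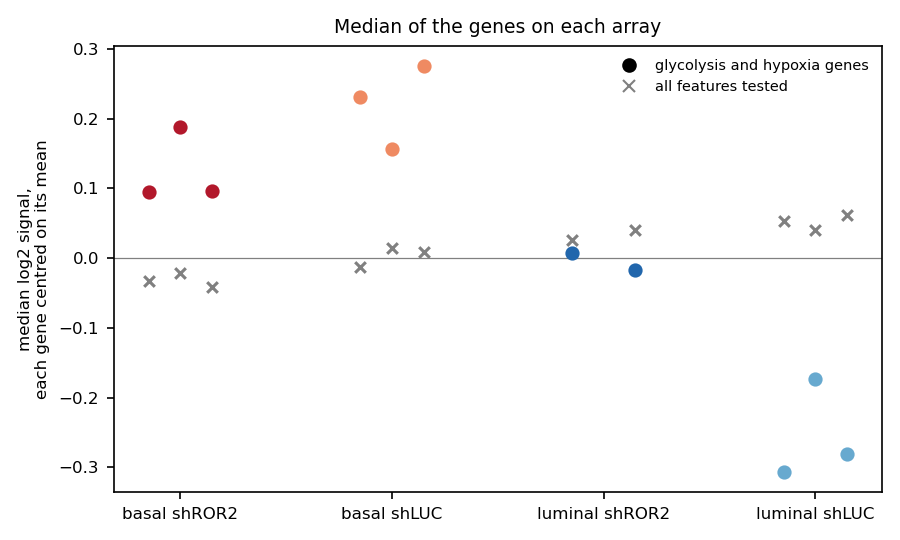
Median over the 32 tested genes of the log2 scaled signal on each array, after each gene was centred on its mean over the 11 arrays, with crosses for the same median over all features. The values are 0.095, 0.188 and 0.096 in basal shROR2, 0.231, 0.157 and 0.276 in basal shLUC, 0.007 and -0.017 in luminal shROR2 and -0.307, -0.174 and -0.281 in luminal shLUC. All basal arrays lie above 0, the luminal shROR2 arrays near 0 and the luminal shLUC arrays below it.

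Other genes of the same pathways were taken from 2 further lists. Of 43 other genes of glucose and pyruvate metabolism, 35 were tested, and in basal against luminal shLUC 4 were called higher (11.4%) and 8 lower (22.9%), against 13.7% and 13.3% of all features. Slc2a4, the insulin-regulated transporter GLUT4, was higher by 3.65 (SE 0.25, adjusted p = 8.21e-06, limma), or by 1.97 with normexp and 1.85 in the authors' table. Slc2a3, the high-affinity transporter GLUT3, was at least 6.16-fold higher in scaled signal, a bound given because it was not well above background on any luminal array. In shROR2 outgrowths its log2 change was only 1.31 with normexp and 1.275 in the authors' table. Since Slc2a3 passed the filter only through basal arrays, its calls between compartments are no support, though the counts with either hairpin include it. Tkt, the transketolase of the pentose phosphate pathway, was lower (log2 -1.66, SE 0.096, adjusted p = 3.03e-06), and Gpd1, the cytosolic glycerol phosphate dehydrogenase, was lower still (log2 -3.77, SE 0.27, adjusted p = 1.09e-05). In shROR2 outgrowths 4 were called higher (11.4%) and 8 lower (22.9%), against 10.6% and 12.3% of all features, among the lower ones Taldo1, the transaldolase (log2 -1.45, SE 0.14, adjusted p = 0.000117).

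With the hairpin, no gene of that list was called in luminal cells, where Pdp1, which reactivates pyruvate dehydrogenase, had the smallest p (log2 -0.70, SE 0.15, adjusted p = 0.324, limma), followed by Pdk4 and Slc2a4. In basal cells 1 was called, Gpd1, higher in basal shROR2 by 1.60 (SE 0.27, adjusted p = 0.0372), or by 0.95 with normexp and 0.88 in the authors' table. Gpd1 is also abundant in adipocytes, whose marker sums were 45.8 to 56.5 in basal shROR2 and 24 to 26.4 in basal shLUC, and their part in this value was not tested. The call of Gpd1 was lost under 14 of 22 alternatives, among them leaving out any basal shLUC array, either luminal shROR2 array, any luminal shLUC array or basal shROR2 replicate 3, with adjusted p from 0.0551 to 0.124 in those cases.

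Of 51 other hypoxia genes, 47 were tested, and in basal against luminal shLUC 22 were called higher (46.8%) and 8 lower (17%), against 13.7% and 13.3% of all features. Igfbp3, an IGF-binding protein, was at least 58.9-fold higher in scaled signal, with no luminal array well above background. Its log2 change was 3.77 with normexp and 3.62 in the authors' table, less than that bound. The bound thus holds for scaled signals only. Since Igfbp3 passed the filter only through basal arrays, its calls between compartments are no support. The counts for this list, with either hairpin, do not leave out such genes. Stc2, a secreted stanniocalcin, was lower (log2 -4.25, SE 0.19, adjusted p = 7.02e-07, limma). In shROR2 outgrowths 18 were called higher (38.3%) and 4 lower (8.51%), against 10.6% and 12.3% of all features. Arnt, the partner of Hif1a, changed by 0.43 in basal against luminal shLUC (SE 0.12, adjusted p = 0.0292), and by -0.41 with the hairpin in basal cells (SE 0.12, adjusted p = 0.158).

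No gene of this second list was called with the hairpin in luminal cells, where Insig2, a brake on sterol synthesis, had the smallest p (log2 -0.82, SE 0.20, adjusted p = 0.417, limma). In basal cells Stc2 was called, higher in basal shROR2 by 1.03 (SE 0.19, adjusted p = 0.0492), or by 0.51 with normexp and 0.47 in the authors' table. The call of Stc2 was lost under 17 of 22 alternatives, among them leaving out any single array other than basal shROR2 replicate 2, with adjusted p from 0.0502 to 0.162 in those cases. The difference of the hairpin effects was called for no gene of either list.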

How the data were processed

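Total RNA of sorted cells was amplified and labelled with Cy3, per the labels' protocols. Groups came from the sample titles. The intensity values of the deposited scanner files came from Agilent Feature Extraction, per the file headers, which record no normalization between arrays. The authors' deposited table gives linear intensity, with column medians of 88.8 to 89.3, and on the log2 scale it tracked each array's raw median signals (r of 0.9965 to 0.998). It is not centred, so direction is known. Its normalization is not stated.

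Processed signals of the spots of a probe were averaged without outlier spots, divided by the 75th percentile of the 59305 spots that are not controls, and taken to log2. Probes were named through RefSeq accessions with RefSeq's gene list for GRCm38.p6, which gave a symbol to 26582 of 55681 probes, and the others were kept under their probe names. Probes well above background on at least 3 of 11 arrays were kept (33611 probes, after 17 others with missing values were left out), and the brightest probe by mean stood for a gene with several (3490 genes). This left 14068 named genes and 15361 unnamed probes, 29429 features in all. The number of arrays limits the precision. The p-values are 2-sided and, since the labels name biological triplicates but no animals, measure the spread between these samples.

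The fit used limma 3.58.1 (lmFit, then eBayes with 1.85 prior degrees of freedom) with data.table (version 1.17.8) in R 4.3.3, and figures used matplotlib 3.10.9 in Python 3.11.15. The fit was also run on simulated data in which a feature had the same SD in every group. That run cannot speak to the larger spread of basal shROR2. Alternatives were normexp with quantile normalization, quantile normalization alone, scaling to the median, the authors' table, no filter, a stricter filter, the mean over probes, slide or replicate number as a block, only the groups compared, array weights, and leaving out each array. The normexp alternative used median signals with an offset of 50, because the files hold no mean signals, whereas the design named mean signals. Deviations from the group means correlated at -0.037 to 0.04 (median 0.021) between arrays with the same replicate number. Between others they correlated at -0.068 to 0.052 (median -0.008). With 2 or 3 arrays per group this check cannot exclude that replicate numbers pair the arrays, and the reported fit used no pairing.

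The members and lists were chosen with earlier results of these data known. Array values are given for members with the 3 smallest p in each hairpin comparison or in their difference, for up to 14 called members with the largest change and no overlap between basal and luminal shLUC, and for isoform families. Of the other lists, up to 3 genes with the smallest p per comparison are named. Some genes of these lists are not reported here. The rule names Arnt for the basal hairpin comparison, and its value between compartments was added after it was seen.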

Additional observations from a re-analysis of the deposited data

Results flagged for a closer look

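In 3 of the genes the shROR2 arrays lay on opposite sides of the shLUC arrays in the 2 compartments. In each, all shROR2 arrays of basal cells were below all basal shLUC arrays and all shROR2 arrays of luminal cells were above all luminal shLUC arrays. The change in basal cells minus that in luminal cells was -0.70 for Ldhb (basal -0.25, luminal 0.45, SE of the difference 0.17), -0.49 for Slc2a1 (basal -0.22, luminal 0.27, SE 0.15) and -0.69 for Hif1a (basal -0.50, luminal 0.19, SE 0.17). The test of this difference by limma passed for none of them, at adjusted p = 0.345 for Ldhb, 0.445 for Slc2a1 and 0.353 for Hif1a. Arrays opposed in this way were seen in 383 of 29429 features (1.3%), and in the reverse way in 192 (0.652%).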

How the results depend on the processing

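Member counts stayed at 0 under every alternative in luminal cells and in the difference of the hairpin effects, and at 15 to 20 between basal and luminal shLUC. Over all features the shLUC counts moved too, from 7939 in the reported fit to 5845 to 9559 without single arrays. Under the other alternatives they ran from 6796 (no filter, 49218 features tested) to 11382 (array weights). In basal cells 1 member was called with normexp, in the authors' table and under the stricter filter (Hif1a each time), and 0 to 1 without single arrays (Egln3 without basal shROR2 replicate 1, and P4ha1 without replicate 2, the sole array of that group with P4ha1 well above background, so no support). Between basal and luminal shROR2 7 were called with only the groups compared, and 8 to 13 without single arrays. The luminal median was 0.161 with normexp, 0.157 in the authors' table and 0.161 to 0.264 without single arrays. The basal median ran from -0.061 to -0.014 without single arrays. The median between compartments was 0.288 with normexp, 0.296 in the authors' table and 0.35 to 0.499 without single arrays in shLUC, and 0.202 under the stricter filter and 0.108 to 0.196 without single arrays in shROR2. The median difference of the hairpin effects was -0.151 with normexp, -0.15 in the authors' table and -0.305 to -0.169 without single arrays.

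Counts over all features moved more. In luminal cells (1 called) they were 22 with normexp, 21 in the authors' table, 5 with quantile normalization, 3 with no filter, 4 under the stricter filter, 58 with array weights, 0 with the mean over probes, the slide as a block or only the groups compared, and 0 to 10 without single arrays. In basal cells (285 called) they were 539 with normexp, 541 in the authors' table, 135 with no filter, 480 under the stricter filter, 133 with the slide as a block, 34 with array weights, 0 with only the groups compared (4641 at an unadjusted p under 0.05 in the reported fit), and 27 to 879 without single arrays, the lowest without basal shLUC replicate 1 and the highest without basal shROR2 replicate 1. Between basal and luminal shROR2 (6722 called) they were 2828 with only the groups compared and 3774 to 7549 without single arrays. The difference of the hairpin effects gave 7 with normexp, 7 in the authors' table, 2 with quantile normalization, 1 with scaling to the median and 0 to 8 without single arrays. Whether the replicate numbers pair the arrays is not known. With the replicate block, 17 members were called between compartments in shLUC, 9 in shROR2 and 0 in each hairpin comparison. Over all features this block called 7266 between compartments in shLUC and 5810 in shROR2, and with the hairpin 0 in luminal and 37 in basal cells.

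Some signs turned. Between basal and luminal shLUC, Pfkfb4 gave 0.148 with the slide as a block and 0.064 to 0.072 without luminal shLUC replicate 2 or 3 or basal shLUC replicate 1 (range over single arrays from -0.202), and Pkm gave 0.022 with scaling to the median, 0.001 with the slide as a block and 0.009 to 0.037, among them 0.03, without luminal shLUC replicate 1 or 2 or basal shLUC replicate 2 (range from -0.047). The difference of the hairpin effects for Pdp1 was 0.58 (SE 0.20, adjusted p = 0.51) with its brightest probe and -0.086 with the mean over probes. Tpi1 passed between compartments in shLUC under 7 of 22 alternatives. Causes were not tested. Dim probes limit Egln1, P4ha1, Ankrd37 and Pdk1, and 2 luminal shROR2 arrays limit every value that uses that group.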
